A study of Homo sapiens with 14 samples.

Results

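The genes described here carry a numbered ZNF symbol, the name given to human zinc finger genes, and were followed in human aortic endothelial cells after 2 treatments directed at CALCRL, which encodes the calcitonin receptor-like receptor. Members were the rows listed in both of the authors' deposited DESeq2 tables whose symbol is ZNF, a number and at most 1 letter, and whose mean reached 30 normalised counts or more in each table. Of 312 ZNF rows listed in both tables, 144 (46.2%) met that minimum and 168 did not, among 10894 genes listed in both, of which 8956 (82.2%) met it. A further 15 ZNF rows were listed for siRNA alone and 23 for deletion alone. The members were chosen by their mean counts in these same tables, so the counts, medians and calls of the members given below are descriptions, with no test of the group. All 144 members had values in both comparisons.

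Most ZNF proteins are transcription factors built from repeated C2H2 fingers, each a short loop held by a zinc ion that can contact DNA. Many also carry a KRAB domain, which recruits TRIM28 and, through it, SETDB1 and other repressors that silence transposable elements and genes. ZNF genes lie in clusters that arose by tandem duplication, with a large share of them on chromosome 19. Some members of the symbol series act elsewhere, in splicing, ribosome quality control or the spindle. In endothelial cells, ZNF580 is known as a gene induced by low-density lipoprotein, ZNF444 as a factor that binds the promoter of the scavenger receptor gene SCARF1, and ZNF24 as a repressor of VEGFA.

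The established line teloHAEC, telomerase-immortalised endothelium of the human aorta, was used throughout. The siRNA arm set 4 libraries of cells reverse transfected with CALCRL siRNA beside 4 of cells that received a scrambled siRNA, 24 hours after transfection. The deletion arm set 3 libraries of cells that had received Cas9 protein by electroporation, with guides on either side of an enhancer named enhancer-8, beside 3 of cells that had received Cas9 with a control guide against HPRT, with RNA taken after 2 days. Both deletion groups therefore received Cas9 and a cut, the edited cells were used without a cloning step named in the labels, and the share of edited alleles is not known here. The arms share no libraries.

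RNA was read near its polyadenylated end only, so a value counts transcripts by their 3' ends and is not divided by gene length. The tables give group-wide values only. Depth per library is therefore unknown, no value per sample can be shown, and whether libraries of opposite groups overlap cannot be told. In their place, group means were derived from the deposited mean and fold change. No error was computed for a derived mean, and the intervals given beside them are those of the fold change. Where the labels do not say that libraries of a group came from separate cultures, the p-values measure only the spread between these libraries. In such bulk samples, fewer cells of a type and less RNA per cell cannot be told apart. CALCRL itself was lower in both of the authors' deposited tables, with a log2 fold change of -1.56 (SE 0.17, n = 4 and 4; DESeq2 adjusted p = 1.90e-17) for siRNA and -1.47 (SE 0.43, n = 3 and 3; adjusted p = 0.00962) for deletion. Of 12 endothelial marker genes, 11 had rows in both comparisons, and PECAM1 had no row under that symbol in either. The derived means of the 11 summed to 8747 normalised counts in the control group and 7250 in the deletion group. CDH5 (log2 fold change -1.44) and KDR (-1.05) were the 2 of them called lower in the authors' deposited deletion table, where 5 of the 11 lay above 0. EGFL7 (-0.46) was the 1 called after siRNA in the authors' deposited table. Of 4 epithelial markers, 2 had rows, summing to 1992 normalised counts in the control and 4298 in the deletion group, where KRT18 was called higher (1.13) in the authors' deposited table. The sums for smooth muscle markers (2 of 4 with rows) were 222 and 204, that for leukocyte markers (1 of 4) went from 7.01 to 17.7, and no fibroblast marker of 4 had a row. The part of these differences in the ZNF values was not tested.

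The promoters of 2 members called in opposite directions after the deletion are shown first, as examples of the sequence the ZNF genes carry at their starts. ZNF787 had the highest ratio of log2 fold change to error among the members called higher, and ZNF260 is the only member called lower with a RefSeq promoter entry. Each run covers 250 bases before and 50 after the start site, in RefSeq on GRCh38.p14, and reads 5′ to 3′ on the gene's strand. Capitals mark GGGCGG, the GC box read by SP factors, and CCGGAA, the core of ETS factor sites, on either strand, with overlapping matches counted separately. The ZNF787 promoter lies at chr19:56121246-56121545 on the minus strand and the ZNF260 promoter at chr19:36528222-36528521 on the minus strand.
ZNF787: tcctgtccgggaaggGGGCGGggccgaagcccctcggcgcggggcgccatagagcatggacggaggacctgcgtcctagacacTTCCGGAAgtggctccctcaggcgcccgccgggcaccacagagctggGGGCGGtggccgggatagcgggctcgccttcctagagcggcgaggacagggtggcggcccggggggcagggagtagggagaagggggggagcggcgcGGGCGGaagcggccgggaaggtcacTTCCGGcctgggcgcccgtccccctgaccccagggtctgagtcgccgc
ZNF260: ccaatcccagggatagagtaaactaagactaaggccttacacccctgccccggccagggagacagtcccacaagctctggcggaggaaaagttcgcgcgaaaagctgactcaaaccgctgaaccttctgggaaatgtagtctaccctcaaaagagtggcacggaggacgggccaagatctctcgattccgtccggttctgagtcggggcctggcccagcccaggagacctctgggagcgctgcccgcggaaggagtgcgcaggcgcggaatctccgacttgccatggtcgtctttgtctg
The ZNF787 promoter is 75% G or C, with 32 CpG dinucleotides, 3 matches to GGGCGG and 3 to CCGGAA. The ZNF260 promoter is 59.7% G or C, with 20 CpG dinucleotides and no match to either word. These 2 promoters are not a contrast that holds over the members, as the shares show.

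Over the 125 members with a RefSeq promoter entry, GGGCGG occurred in 64.8% and CCGGAA in 44.8%, against 44.6% and 17.6% of all 27305 promoters in the table. The core word of the site bound by ZNF143 occurred in 3 members (2.4%) and in 0.256% of all promoters. Median GC content of the members' promoters was 63.7% with 25 CpG dinucleotides, against 58.3% and 14 over all promoters, which include genes not measured in these cells. Among the 12 members called higher after the deletion that had an entry, 7 (58.3%) held GGGCGG and 7 held CCGGAA. These are matches of letters and not measured binding sites.

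After the enhancer deletion, 13 ZNF members were called higher and 3 lower at a DESeq2 adjusted p-value under 0.05 in the authors' deposited table. That was 9.03% and 2.08% of the 144 members, where 7.4% of all 11830 genes tested were higher and 8.44% lower (15.8% in all). Among the genes with the same minimum in both tables, 9.15% were higher and 9.96% lower (19.1% in all). The rule used the mean counts of this same contrast, so nothing is read from these shares. The members' log2 fold changes ran from -2.27 to 2.20 with a median of 0.13, 86 above 0 and 58 below, and the median over the genes with the same minimum was 0.00. Of the 144 members, 70 lay within 0.5 of no change on the log2 scale, as did 4496 of the 8956 genes with the same minimum.

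After CALCRL siRNA, 1 member (0.694%) was called lower and none higher by DESeq2 in the authors' deposited table, where 2.42% of all 11261 genes tested were called lower and 1.05% higher (3.46% in all). Among the genes with the same minimum, 2.89% were lower and 1.22% higher (4.11% in all). At an unadjusted p-value under 0.05 there were 9 members, against 38 in the deletion arm, and over all genes the shares were 12% and 29.7%. The members' log2 fold changes ran from -0.70 to 0.51 with a median of -0.05, 60 above 0 and 84 below. Of the 144 members, 141 lay within 0.5 of no change, as did 8602 of the 8956 genes with the same minimum. The median over those genes was 0.00. The error behind a value was smaller here, with a median standard error of 0.20 over the members for siRNA and 0.44 for deletion. With a reference distribution of heavier tails (6 and 4 degrees of freedom) for DESeq2's Wald statistics in place of the normal one, no member was called in either arm (3 for siRNA and 12 for deletion at an unadjusted p-value under 0.05). The same setting left 0.0444% of all genes called for siRNA and 0% for deletion, with 6.87% and 13.9% at an unadjusted p-value under 0.05. With the statistics divided by their robust SD over all genes, none was called after the deletion (3 unadjusted), and neither was any of the 11830 genes (4.51% unadjusted). For siRNA that division left 2.33% of all genes called (9.56% unadjusted), ZNF512B among them.

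**Figure D1:**
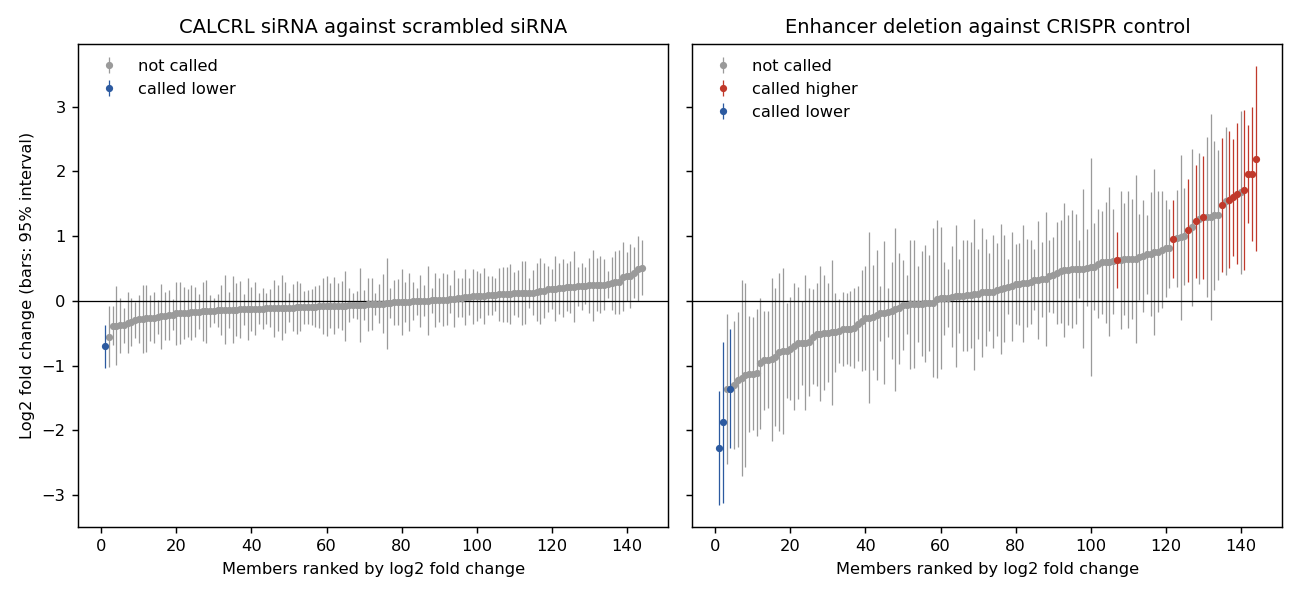
Log2 fold change of the 144 ZNF members, ranked within each arm, with 95% intervals as bars; gray points were not called, red were called higher and blue lower (DESeq2 adjusted p under 0.05). In the siRNA arm the points run from -0.70 to 0.51 with 1 called; in the deletion arm they run from -2.27 to 2.20 with 13 called higher and 3 lower.

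The member with the largest fall after the deletion was ZNF706, which encodes a short protein of 76 residues with a single finger motif. Its derived mean fell from 722 normalised counts in the control group to 150 in the deletion group in the authors' deposited table, to 20.7% of the control (95% interval 11.3% to 38.1%; log2 fold change -2.27, SE 0.45; DESeq2 adjusted p = 5.57e-05). After siRNA its derived means were 351 in the scrambled group and 371 in the CALCRL group (log2 fold change 0.08, SE 0.22) in the authors' deposited table. The difference between the arms was -2.35 on the log2 scale (95% interval -3.33 to -1.37).

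ZNF746, also called PARIS, is a KRAB repressor of the PGC-1α gene that parkin marks for degradation. It went from 109 derived normalised counts in the control to 29.7 after the deletion, 27.3% of the control (11.5% to 64.7%; log2 fold change -1.87, SE 0.64; DESeq2 adjusted p = 0.0281) in the authors' deposited table. The siRNA log2 fold change of ZNF746 was 0.18 (SE 0.18) in the authors' deposited table. ZNF260, with 13 finger motifs and no KRAB domain, went from 95 to 37.1, which is 39.1% of the control (20.6% to 74.0%; log2 fold change -1.36, SE 0.47; DESeq2 adjusted p = 0.0321). For siRNA the authors' deposited table gives 0.02 (SE 0.20) for ZNF260. All 3 members that fell after the deletion had a siRNA value above 0 that did not pass the test.

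Of the 13 members that rose after the deletion, ZNF551 had the largest fold and one of the lowest counts. ZNF551 carries 14 finger motifs and a KRAB domain. Its derived mean went from 15.1 to 69.0 normalised counts, 4.58-fold higher (95% interval 1.70 to 12.4; log2 fold change 2.20, SE 0.73; DESeq2 adjusted p = 0.0251) in the authors' deposited table. ZNF787, with 7 finger motifs, went from 60.4 to 235, 3.89-fold higher (2.30 to 6.57; log2 fold change 1.96, SE 0.39; adjusted p = 5.17e-05). ZNF668, which is linked to p53 and the DNA damage response, went from 37.8 to 147, 3.90-fold higher (1.90 to 8.0; log2 fold change 1.96, SE 0.53; adjusted p = 0.00495) in the authors' deposited table. The narrow interval of ZNF787 and the wide one of ZNF551 overlap, so the order of these 3 members is not resolved. The 3' end of ZNF551 overlaps ENSG00000269026 on the same strand, so reads of these genes could have been counted for each other. That of ZNF668 overlaps ENSG00000232748 on the other strand.

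The genes with known endothelial or repressor roles among those that rose were ZNF444, ZNF580 and ZNF219. ZNF444, the factor that binds the SCARF1 promoter, went from 58.3 to 191 derived normalised counts, 3.28-fold higher (1.39 to 7.75; DESeq2 adjusted p = 0.0449) in the authors' deposited table. ZNF580, the lipoprotein-induced gene, went from 53.4 to 158, 2.95-fold higher (1.42 to 6.14; adjusted p = 0.0309). In GENCODE 29 its 3' end overlaps ZNF581 and CCDC106 on the same strand, so reads of these genes could have been counted for each other. ZNF219, a repressor that also partners SOX9 in cartilage, went from 37.2 to 113, 3.03-fold higher (1.62 to 5.66; adjusted p = 0.00881) in the authors' deposited table. Its 3' end overlaps ARHGEF40 on the other strand, and whether counting used the strand is not given in the sources used here.

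Among the larger regulators, ZNF609, which binds the cohesin loader NIPBL and the Integrator complex, went from 253 to 491 derived normalised counts, 1.94-fold higher (1.28 to 2.95; DESeq2 adjusted p = 0.0196) in the authors' deposited table. ZNF521, an antagonist of EBF1 in which 27 finger motifs were matched, went from 250 to 387, 1.55-fold higher (1.15 to 2.08, DESeq2 adjusted p = 0.0331). Both had more counts than the other members that rose, and their intervals are the narrowest among the members called after the deletion. The other 5 that rose were ZNF212 (15.4 to 48.5), ZNF526 (30.0 to 83.7), ZNF584 (28.5 to 69.6), ZNF430 (57.3 to 135) and ZNF500 (47.6 to 101), with log2 fold changes from 1.09 to 1.65 in the authors' deposited table. The 3' end of ZNF500 overlaps ENSG00000266994 on the same strand and DNAAF8 on the other. None of the 13 passed the test after siRNA, where their log2 fold changes lay between -0.20 and 0.19 in the authors' deposited table.

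**Figure D2:**
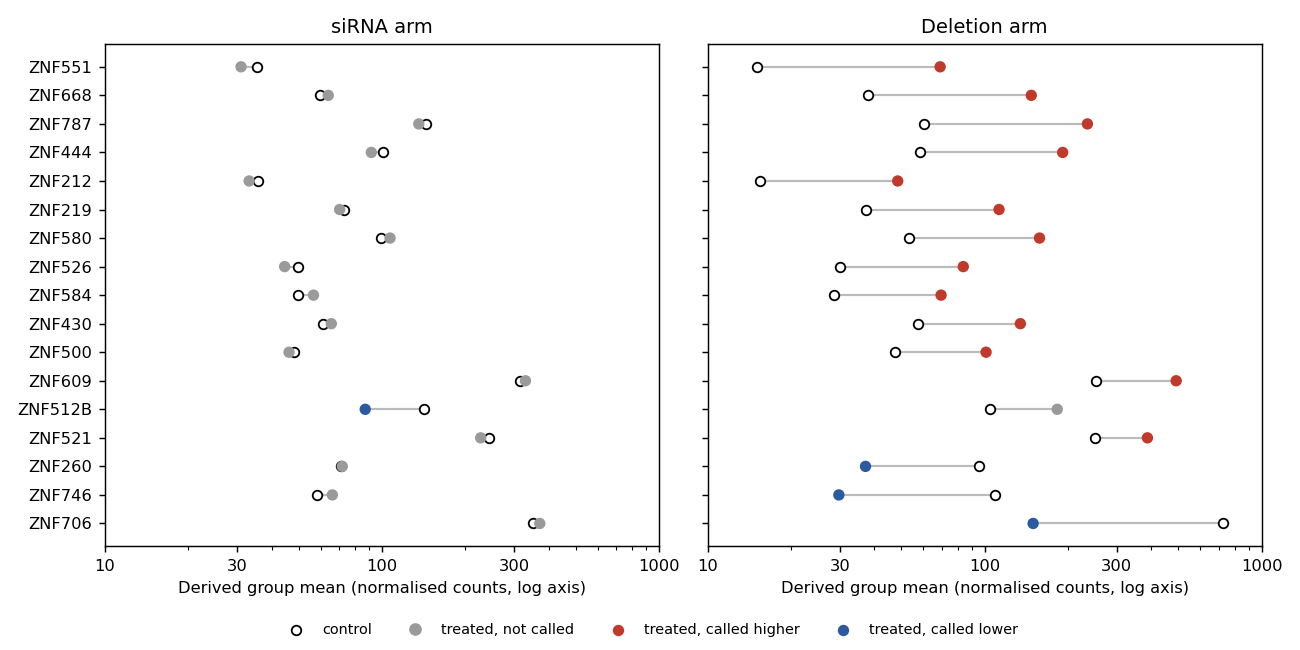
Derived group means in normalised counts (log axis) of the 17 members called in either arm, siRNA arm on the left and deletion arm on the right; open circles are controls and filled circles treated groups, with no error drawn. In the deletion panel 13 red points lie to the right of their controls and 3 blue points to the left; in the siRNA panel only ZNF512B is blue, at 86.9 against 142.

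The 1 member that fell after CALCRL siRNA was ZNF512B, which is linked to TGF-beta signalling. Its derived mean went from 142 normalised counts with scrambled siRNA to 86.9 with CALCRL siRNA, 61.4% of the control (95% interval 48.7% to 77.5%; log2 fold change -0.70, SE 0.17; DESeq2 adjusted p = 0.00258) in the authors' deposited table. After the deletion it went from 104 to 183 (log2 fold change 0.81, SE 0.38; adjusted p = 0.131) in the authors' deposited table, which did not pass the test. The deletion value lay above the siRNA value by 1.51 on the log2 scale (95% interval 0.69 to 2.33). Its 3' end overlaps UCKL1-AS1 on the other strand. Of the other 8 members at an unadjusted p-value under 0.05 after siRNA, ZNF12, ZNF319, ZNF775 and ZNF827 had values above 0 (0.26 to 0.51) and ZNF280B, ZNF37A, ZNF518B and ZNF703 below 0 (-0.56 to -0.30) in the authors' deposited table, all with adjusted p-values over 0.05.

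**Figure D3:**
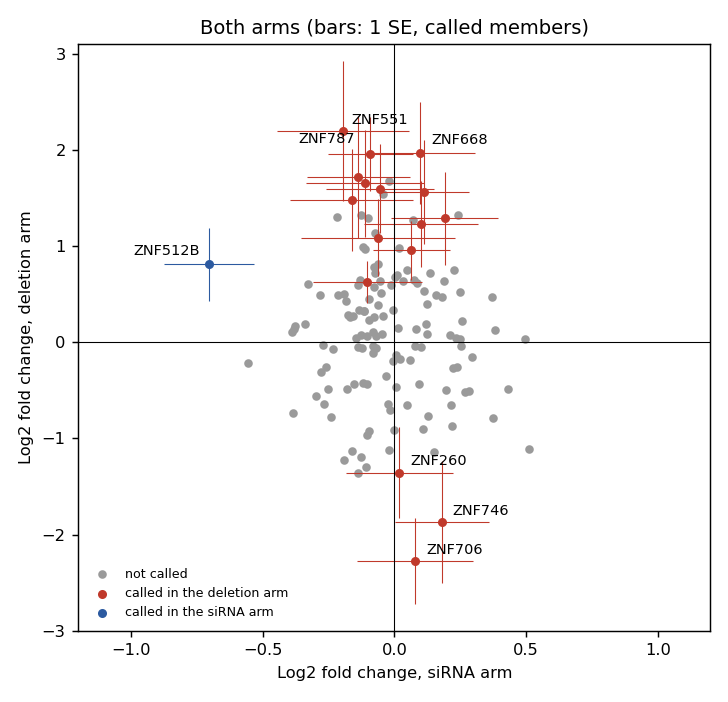
Log2 fold change of each ZNF member after CALCRL siRNA (horizontal axis) and after the enhancer deletion (vertical axis), with 1 standard error on the members called. The 16 members called after the deletion lie between -0.20 and 0.19 on the siRNA axis, and ZNF512B lies at -0.70 there and at 0.81 on the deletion axis.

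The word GTAACAA was searched in the members' 3' UTRs because earlier results of these data had tied it to genes lower after CALCRL siRNA. Only the strand of the transcript was searched, in the longest 3' UTR that GENCODE 29 gives. ZNF512B carries the word, as do several members whose siRNA values lie near 0. The windows below are 30 bases of the transcript, 5′ to 3′, with the word in capitals.
ZNF512B: tgctgtgacaaGTAACAAccttttttttaa
ZNF629: atgaaacatctGTAACAAgactcccactcc
ZNF207: agtctgaatgtGTAACAAtatttaatgtat
ZNF281: tgatctcaactGTAACAAggctgtaattcc
ZNF638: gcaagaagtagGTAACAAaggagtgtaaag
ZNF33B: gctcatcaattGTAACAAatgaaccataat
The ZNF512B site starts at base 1475 of a 3' UTR of 3186 bases, on chromosome 20. The siRNA log2 fold changes of the others in the authors' deposited table were -0.38 (SE 0.22) for ZNF629, -0.15 (SE 0.10) for ZNF207, -0.11 (SE 0.11) for ZNF281, 0.08 (SE 0.15) for ZNF638 and 0.37 (SE 0.27) for ZNF33B, and none passed the test. The word was present in 23 of the 143 members whose 3' UTR could be searched (16.1%), and in 966 of 8743 genes with the same minimum (11%). It was present in 148 of the 254 genes with the minimum that were called lower after siRNA (58.3%). Since the word was picked for its tie to such genes in these same data, that share is no separate evidence for it. Of the 23 members with the word, 13 had a siRNA log2 fold change below 0, with a median of -0.10, and 1 (4.35%) was called. Of the 120 members without it, 70 lay below 0, with a median of -0.04, and 0 were called. Over all 966 genes with the minimum and the word, 685 lay below 0, the median was -0.12 and 152 (15.7%) were called.

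Values after the deletion went with the GC content of the last 500 bases of the transcript, the stretch nearest to where reads were taken. Across the 143 members matched to GENCODE 29, Spearman's rho was 0.384 and Pearson's r 0.415, and across the 8881 genes with the same minimum rho was 0.337 and r 0.295. After siRNA, rho was -0.038 over the members and 0.0865 over those genes. These correlations are across genes, which share their libraries and are not independent replicates. The 48 members with GC content up to 36.5% had a median log2 fold change of -0.23, the 50 above that and up to 46.6% had 0.06, and the 45 with more had 0.57. Of the 45 richest in GC, 9 were called higher and none lower, while the 48 poorest held 2 called higher and all 3 called lower. Among all genes of those GC ranges with the same minimum there were 572 higher and 185 lower of 3054 in the richest range and 79 higher and 398 lower of 3057 in the poorest. Over all genes of the same GC ranges the medians were -0.21, -0.08 and 0.38.

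With the trend on GC content removed over all genes, 6 of the 16 members kept a call after the deletion: ZNF430, ZNF521, ZNF551, ZNF609, ZNF706 and ZNF787. Over all genes, 3.43% were then called higher and 8.28% lower. The adjusted p-values of the 6 in that order were 0.0298, 0.00907, 0.0175, 0.0363, 0.000185 and 0.00258. The 10 that lost the call included ZNF746 (0.0516), ZNF260 (0.0703), ZNF668 (0.0923), ZNF219 (0.140), ZNF580 (0.243) and ZNF444 (0.273), with the direction unchanged in each of the 16. ZNF800 gained a call; as deposited it had a log2 fold change of 0.72 (SE 0.31; DESeq2 adjusted p = 0.0930) in the authors' deposited table.

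**Figure D4:**
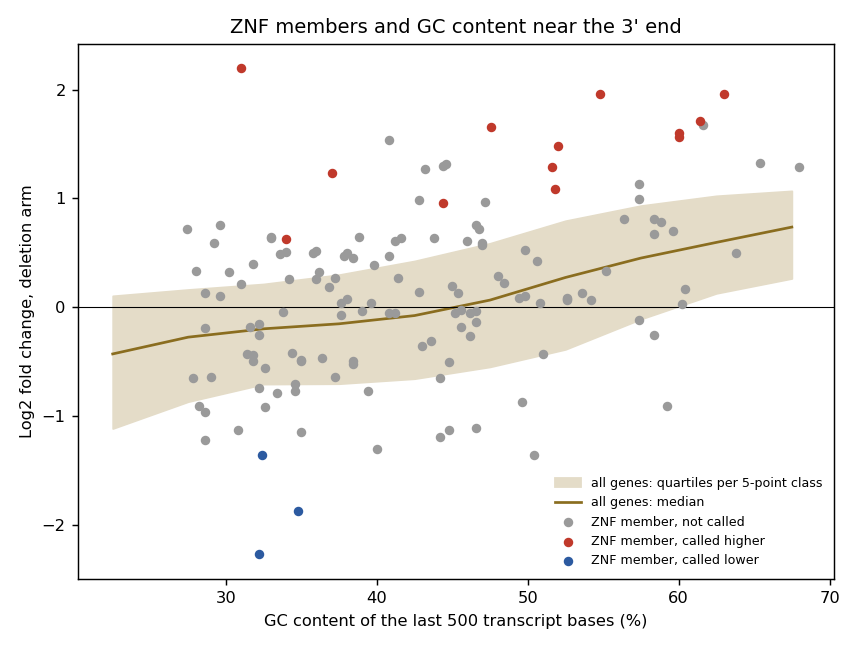
Log2 fold change after the deletion against the GC content of the last 500 transcript bases, for the 143 ZNF members with an annotation; the line and band give the median and quartiles of all genes in GC classes. Of the 13 members called higher, 10 lie at 44.4% GC or above, with ZNF551 at 31.0% and 2.20 as the highest, and the 3 called lower lie between 32.2% and 34.8%.

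Chromosome 19 held 40 of the 143 placed members, chromosome 16 held 18 and all other chromosomes 85. The chromosome 19 members had a median log2 fold change of 0.55 after the deletion, with 7 called higher and 1 lower, and the 103 elsewhere had 0.10, with 6 higher and 2 lower. The 469 other genes of chromosome 19 with the same minimum had a median of 0.45, with 104 called higher and 21 lower. Their transcripts ended in richer sequence, with a median GC content of 56.4% against 42.7% for the ZNF members of that chromosome. With the GC trend removed, the medians were 0.49 for the chromosome 19 members, 0.02 for the members elsewhere and -0.02 for the other genes of chromosome 19. No test was made of these differences, since neighbouring ZNF genes are related copies and are not independent. After siRNA, the chromosome 19 members had a median of -0.02 and none was called.

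Members whose start lay within 1 Mb of that of the next member were joined, which gave 8 groups of at least 4. A whole group could thus span more than 1 Mb. The group with the highest median was on chromosome 19, between 55576770 and 56626481 on GRCh38, and held ZNF579, ZNF524, ZNF580, ZNF581, ZNF787, ZNF444 and ZNF71. Its log2 fold changes in that order were 1.32, 1.29, 1.56, 0.99, 1.96, 1.71 and -0.51 in the authors' deposited table, of which 3 passed the test after adjustment and 6 without it. Its median of 1.32 was 0.96 with the GC trend removed, and its median GC content was 57.4%. Further along the same chromosome, a group from ZNF551 to ZNF584 (57681969 to 58418327) held 2 members called higher, and ZNF587B in between had -0.77 (SE 0.65; DESeq2 adjusted p = 0.450) in the authors' deposited table. ZNF587 and ZNF587B are near-identical copies, and so are ZNF33A and ZNF33B, so the split of reads within each pair is uncertain. On chromosome 7, ZNF212 and ZNF746 belonged to 1 group of 6 and were called in opposite directions, at 1.65 and -1.87. The group of 8 from ZNF175 to ZNF331 on chromosome 19 had a median of 0.47 and no call.

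**Figure D5:**
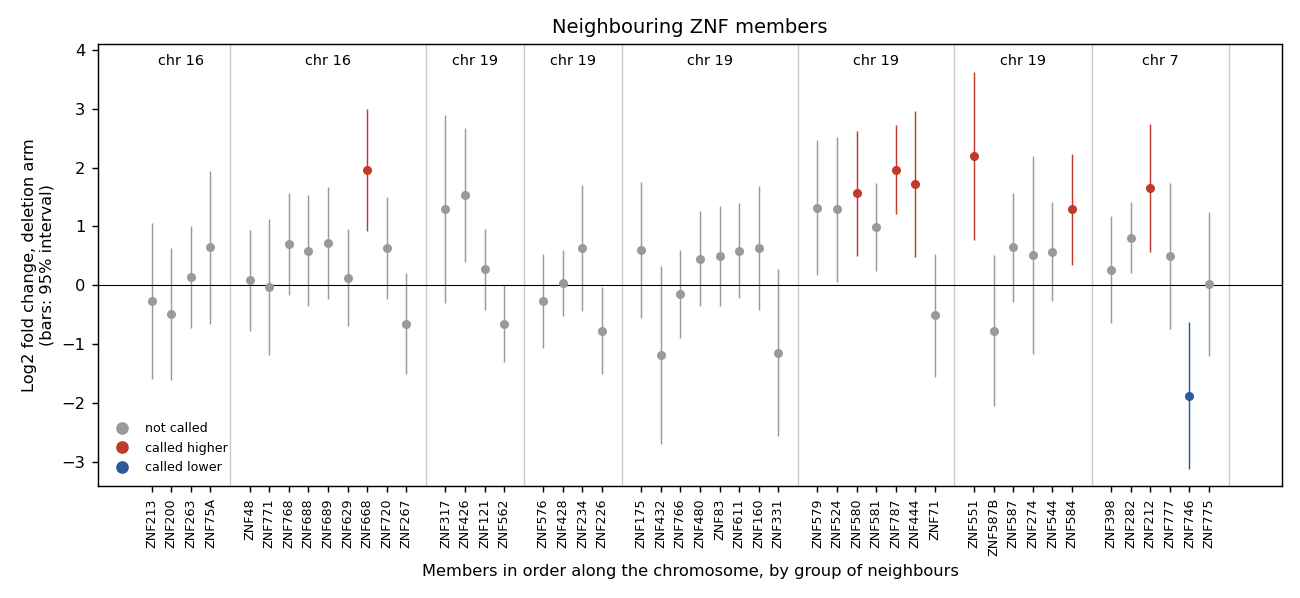
Log2 fold change after the deletion, with 95% intervals, of the members in the 8 groups of neighbours, in order along each chromosome; colours mark calls. In the group from ZNF579 to ZNF71, 6 of 7 members lie above 0, and in the chromosome 7 group ZNF212 and ZNF746 lie on opposite sides.

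Finger number did not order the values. Members held 0 to 31 C2H2 motifs, with a median of 8, and Spearman's rho with the deletion value was -0.017 over 143 members. The 41 members with at most 4 motifs had a median log2 fold change of 0.14 (4 called higher, 2 lower), the 43 with 5 to 9 had 0.22 (4 higher), the 38 with 10 to 14 had 0.10 (3 higher, 1 lower) and the 21 with 15 or more had -0.11 (2 higher). No motif was found in 7 members, among them ZNF185, a LIM protein of the actin cytoskeleton. A KRAB box was found by its sequence in 24 members with a median of 0.28 (2 higher, 1 lower), and the other 119 had 0.14 (11 higher, 2 lower). A wider KRAB pattern, added after the data were seen, took in 42 members and gave 0.10 against 0.14. The first pattern is strict and misses KRAB boxes, and the wider one can miss some too. Members without a match are therefore not a group free of KRAB.

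Apart from ZNF746 and ZNF521, no member listed for a textbook role was called in either arm. ZNF143, an activator at housekeeping promoters, had a log2 fold change of 0.38 (SE 0.25) after siRNA and 0.13 (SE 0.51) after the deletion, from the authors' deposited tables. ZNF24, the VEGFA repressor, had -0.07 (SE 0.10) and -0.06 (SE 0.23). ZNF217, an oncogene product found with CoREST, had 0.00 (SE 0.20) and -0.91 (SE 0.38; DESeq2 adjusted p = 0.0829) in the authors' deposited tables. ZNF274, which brings SETDB1 to the 3' ends of other ZNF genes, had 0.25 (SE 0.21) and 0.52 (SE 0.86). Of these, ZNF24 had the smallest errors, and its deletion interval is far narrower than that of ZNF274.

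ZNF207, the spindle protein that binds BUB3, had -0.15 (SE 0.10) after siRNA and -0.43 (SE 0.28) after the deletion, from the authors' deposited tables. ZNF598, the ubiquitin ligase of collided ribosomes, had -0.13 (SE 0.12) and 0.08 (SE 0.29). ZNF622, a factor of large ribosomal subunit assembly, had -0.10 (SE 0.13) and 0.23 (SE 0.43) in the authors' deposited tables. ZNF326, a splicing and elongation factor, had 0.13 (SE 0.12) and 0.39 (SE 0.30), and ZNF451, a SUMO ligase, 0.02 (SE 0.11) and -0.18 (SE 0.19). ZNF644, a partner of the G9a methyltransferase, had -0.01 (SE 0.11) and -0.19 (SE 0.22), and ZNF827, which brings NuRD to telomeres, 0.26 (SE 0.11; adjusted p = 0.219) and 0.22 (SE 0.22) in the authors' deposited tables. None of these members, which mostly work away from promoters, was called. A value that did not pass the test leaves room for a change within its error, which is wide in the deletion arm.

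By level, the members with the most counts were ZNF106 (967 normalised counts for siRNA and 1581 for deletion), ZNF428 (887 and 454), ZNF827 (714 and 681), ZNF207 (621 and 673), ZNF185 (547 and 729) and ZNF148 (425 and 698), as means over all libraries in the authors' deposited tables. None of these 6 was called in either arm. The members' median level was 69.3 normalised counts for siRNA and 81.1 for deletion, against 187 and 211 over all genes with the minimum. Just inside the minimum were ZNF189 (30.3), ZNF432 (30.8) and ZNF213 (31.4), by the lower of the 2 means. Just outside were ZNF197 (28.8), ZNF324 (29.3) and ZNF614 (29.5). ZNF324 had a log2 fold change of 2.13 (SE 0.60; DESeq2 adjusted p = 0.00686) after the deletion in the authors' deposited table and was left out by its mean alone. Of the 168 rows under the minimum, none was called by DESeq2 after siRNA, and 4 were higher and 4 lower after the deletion. Over all 10894 genes listed in both, 380 were called after siRNA and 1814 after the deletion. Of these, 368 and 1711 met the minimum. After the deletion, a larger share of the ZNF calls fell under it, with 16 members called beside those 4 higher and 4 lower. ZNF rows also met the minimum less often, at 46.2% against 82.2% of all genes listed in both.

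The corepressors through which KRAB and related ZNF proteins act were described as a list of 41 symbols. TASOR and FAM208A on it are names of the same gene, which had rows as FAM208A. Of the 39 with a row for siRNA, 3 were called lower and none higher, where 2.42% of all genes were lower and 1.05% higher. Of the 40 with a row for deletion, 5 were called higher and 5 lower, where 7.4% of all genes were higher and 8.44% lower. The medians of the list were -0.04 and -0.03 against 0.00 over all genes in each. The list was not tested as a group. TRIM28, the KRAB corepressor, had -0.10 after siRNA and 0.07 after the deletion, from the authors' deposited tables, and SETDB1, its histone methyltransferase, had -0.47 and -0.64 (DESeq2 adjusted p = 0.0699 and 0.361). After siRNA the genes that fell were MTA2, a NuRD subunit (log2 fold change -0.79), DNMT1, the maintenance DNA methyltransferase (-0.51), and FAM208A, the HUSH subunit TASOR (-0.47), in the authors' deposited table. After the deletion EHMT2, the G9a methyltransferase (1.44), MBD3 (1.34), CBX3 (0.74), CHD4 (0.71) and GATAD2A (0.63) rose. Among those that fell were MTA1 (-2.01), SMARCAD1 (-1.15) and RBBP7 (-0.95) in the authors' deposited table. NuRD subunits were thus found on both sides, with CHD4, MBD3 and GATAD2A higher and MTA1 and RBBP7 lower.

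Zinc finger genes under other symbols (ZSCAN, ZKSCAN, ZBTB and ZFP) gave 38 rows with the same minimum, of which ZSCAN16-AS1, an antisense RNA, and ZBTB8OS, named for the opposite strand of a ZBTB gene, are no zinc finger genes. Over the other 36, the median log2 fold change was 0.01 after siRNA and -0.25 after the deletion. ZBTB10 (-0.59) and ZFP36L2 (-0.66) were the 2 called lower after siRNA in the authors' deposited table. After the deletion ZKSCAN5 was called higher (1.32) and ZFP36L1 lower (-1.13) in the authors' deposited table. Of all genes with the same minimum, 4.11% were called after siRNA and 19.1% after the deletion. The transcripts of the 36 ended in sequence of lower GC content, with a median of 35.6% against 41.4% for the ZNF members. With the GC trend removed, the deletion medians were -0.16 for the 36 and 0.10 for the ZNF members, against -0.25 and 0.13 as deposited. ZFP36L1 and ZFP36L2 are RNA-binding proteins with fingers of another type. The difference between the 36 genes and the ZNF members was not tested.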

How the data were processed

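Libraries from teloHAEC cells were made with QuantSeq 3' mRNA-seq FWD, per the labels' protocols, and groups were taken from the sample titles. Per the file headers and names, featureCounts and DESeq2 were the authors' tools for counting and for comparing groups. Each row of the authors' deposited tables holds a gene's mean normalised count, its log2 fold change with standard error, the Wald statistic, which is a score, and p-values before and after adjustment. They hold decimal commas. Per the submitters' processing notes, hg19 and edgeR 3.24.3 were used, with no role named. The aligner, annotation and filters are not given in the sources used here.

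Called means an adjusted p-value under 0.05, and 5 rows of the deletion table without a p-value stayed out. Intervals are 95%, from the deposited standard error and a normal reference, also for differences between arms. Group means were derived from the mean count and the fold change, with groups of equal size. GC content, 3' UTRs, finger motifs and KRAB boxes came from GENCODE 29 on GRCh38 by gene ID, with coding sequences translated in place of RefSeq proteins; promoters came from RefSeq. A trend on GC content was removed by lowess (span 0.3; statsmodels 0.14.6, scipy 1.17.1, pandas 2.3.3, Python 3.11.15), checked on simulated data. The count tests that need values per library could not be run. Alternatives were other error references, GC removal, a threshold of 0.01, minimums of 10 and 100, and at least 1 finger motif.

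Named genes were the called members (in the deletion arm up to 10 in each direction), the 5 with the highest means in each table, 3 on each side of the minimum, 5 with the largest difference between arms relative to its error, and those with textbook roles. Some genes of the corepressor list are not reported here by name. Other members were named after their values were seen. Members and lists were chosen with earlier results of these data known.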

Additional observations from a re-analysis of the deposited data

How the results depend on the processing

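No paired analysis was possible because values of separate libraries are not given in the tables, and for the same reason no library could be left out and no batch examined. With a Student t reference (6 and 4 degrees of freedom) in place of the normal one, 0 members were called after siRNA (3 at an unadjusted p-value under 0.05) and 0 after the deletion (12 unadjusted), against 1 and 16 by DESeq2. Over all genes, 5 of 11261 were then called after siRNA and 0 of 11830 after the deletion. With the statistics divided by their robust SD over all genes, 0 were called after the deletion (3 unadjusted), as were 0 of all 11830 genes, and the siRNA call was kept. Removing the GC trend left 7 called after the deletion (6 higher, 1 lower), a threshold of 0.01 left 4 (3 higher, 1 lower), and a minimum of 100 left 5 of 48 members (4 higher, 1 lower). A minimum of 10 gave 23 of 276 (16 higher, 7 lower), and asking for at least 1 finger motif kept all 16. Shares of all genes called at the 0.01 threshold or at these other minimums are not given, so nothing is read from those counts. ZNF512B stayed called after siRNA in every alternative but the t reference, where its adjusted p-value was 0.394. The members' median log2 fold change after the deletion was 0.13, and 0.10 to 0.22 under the alternatives except a minimum of 10, where it was -0.04, so its sign rests on the minimum. Of the named genes, none that had been called changed direction with the GC trend removed. Among the uncalled ones the sign after the deletion turned for ZNF703 (0.17 to -0.45), ZNF598 (0.07 to -0.28), ZNF428 (0.04 to -0.24), ZNF644 (-0.19 to 0.02) and ZNF101 (-0.07 to 0.03), and that of ZNF644 also turned after siRNA (-0.01 to 0.02). The cause of these changes was not tested. Depth per library is unknown, and the members' standard errors had a median of 0.20 after siRNA and 0.44 after the deletion.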
